A study of Mus musculus with 6 samples.

Results

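The oligoadenylate synthetase (OAS) genes of the mouse were followed in bone marrow-derived macrophages (BMDM), phagocytes grown in culture from marrow precursors. Their 8 members, taken by gene symbol, were Oas1a, Oas1b, Oas1c, Oas1g, Oas2, Oas3, Oasl1 and Oasl2, of 55291 genes in the deposited table, and all 8 passed the filter on low values that left 12603 genes to test. Poly(A) RNA libraries were made from BMDM treated with apoptotic cells (AC, 3 libraries) and from BMDM without AC treatment (3 libraries). The titles say only with or without AC treatment, and AC pretreated and untreated are the names used here for these groups. The sources used here do not give strain, age or sex of the mice, nor where the apoptotic cells came from, how many were added or when. They do not say either whether replicates were separate animals or cultures, and a p-value then reflects no more than the scatter among these 6 libraries, which can be technical. The comparison asks which transcripts differ in macrophages that have met apoptotic cells.

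OAS enzymes sense double-stranded RNA of viruses in the cytosol. On binding it, they join ATP into short oligoadenylates, second messengers that set off the breakdown of viral and cellular RNA. The OAS genes are classic targets of type I interferon, through the transcription factor complex ISGF3, and macrophages can keep many of them on at a basal level. Whether the levels given here are basal ones was not tested.

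Levels are TPM, a length-scaled share of all transcripts, after each library was rescaled to sum to 1000000. Levels of different genes can be set side by side only roughly. The length is that of all exons of a gene merged, and values also varied with length between libraries. Each difference is that of mean log2(TPM + 1), AC pretreated minus untreated, given with the SE of a limma fit across all genes, and p-values were adjusted over all 12603. No gene in the genome-wide table passed an adjusted p of 0.05 by limma (0 of 12603, 0.00%), while 164 genes (1.30%) had an unadjusted p under 0.05. By voom on recovered reads, which covered 12202 genes, the numbers were 0 and 97. Of the 8 OAS members, 0 passed, 0 had an unadjusted p under 0.05, and each had an adjusted p of 1.0 by limma. In a bulk sample, fewer cells that express a gene and less of its RNA per cell cannot be told apart.

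Libraries differed in ways that may bear on the values of these genes. Recovered depth was 20717426 to 24980843 reads in AC pretreated and 19042049 to 32212701 reads in untreated libraries. The 8 macrophage markers were all present, at a summed 21277 to 29847 TPM in AC pretreated and 23908 to 28306 TPM in untreated libraries. Of 12 T cell and thymocyte markers, 11 stayed below 1 TPM in every library, with Cd3d and Cd8b1 at 0. The exception was Cd4, at 9.65 to 16.8 TPM in AC pretreated and 9.48 to 14.8 TPM in untreated libraries. A list of 15 placental genes summed to 34.0, 161 and 0 TPM in AC replicates 1, 2 and 3, and to 18.0, 36.0 and 0 TPM in untreated replicates 1, 2 and 3. Replicate 3 of each group thus stood apart from the other 4 libraries. Gm23935 took up 73936 TPM of AC replicate 3 and 9648 to 13452 TPM of each other library, and a gene of that size lowers every other TPM of its library. For Lyz2 the odd library was untreated replicate 1, with 83.7 TPM where the others had 9270 to 12451 TPM. The 7 neutrophil markers summed to 25.0 to 41.7 TPM in AC pretreated and 23.4 to 54.4 TPM in untreated libraries. A list of 6 plasmacytoid dendritic cell markers summed to 2152 to 3579 TPM in AC pretreated and 2631 to 3203 TPM in untreated libraries. That list shares a gene with the interferon-induced effectors below, and whether such cells were present was not tested. A list of 4 erythroid genes summed to 6.43, 16.8 and 0.177 TPM in AC replicates 1, 2 and 3. In untreated replicates 1, 2 and 3 that list summed to 1.42, 2.93 and 0 TPM, so replicate 3 was the lowest in each group. The part that these differences play in the OAS values was not tested.

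The OAS transcripts together were abundant in both groups. The 8 members summed to 1880, 1930 and 1904 TPM in AC pretreated replicates 1, 2 and 3, a mean of 1904 ± 25.0 TPM, against 2212, 2164 and 1836 TPM in untreated replicates 1, 2 and 3, a mean of 2071 ± 204 TPM (SD, n = 3 each). Untreated replicates 1 and 2 lay above all AC libraries and untreated replicate 3 below them, so the groups overlapped and the AC pretreated libraries all lay inside the untreated range. The difference of the means was -166 TPM, and it came to -95.7 TPM without untreated replicate 1 and -283 TPM without untreated replicate 3. It was -61.6 TPM with median-of-ratios scaling and -113 TPM when libraries were rescaled without Gm23935 and Lyz2.

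Members differed far more from each other than between the groups. Oas1a was the most abundant in every library, at 522 to 615 TPM in AC pretreated and 577 to 610 TPM in untreated libraries, and its mean was higher than that of 98.1% of the genes tested. Oasl2, Oas3, Oas1g, Oas2 and Oasl1 followed in order of their means. The ranges of neighbours in that middle stretch overlapped: Oasl2 was above Oas3 in 4 of 6 libraries, Oas3 above Oas1g in 4, Oas1g above Oas2 in 5 and Oas2 above Oasl1 in 4. Oas1b and Oas1c were last and did not overlap with the others or with each other. Oas1c still stood above 66.1% of the genes tested. The other Oas1 genes were low or not detected: Oas1h ranged from 0.946 to 2.7 TPM, Oas1f had 1 read in AC replicate 1, Oas1d had 1 read in untreated replicate 2, and Oas1e was listed at 0.

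**Figure D1:**
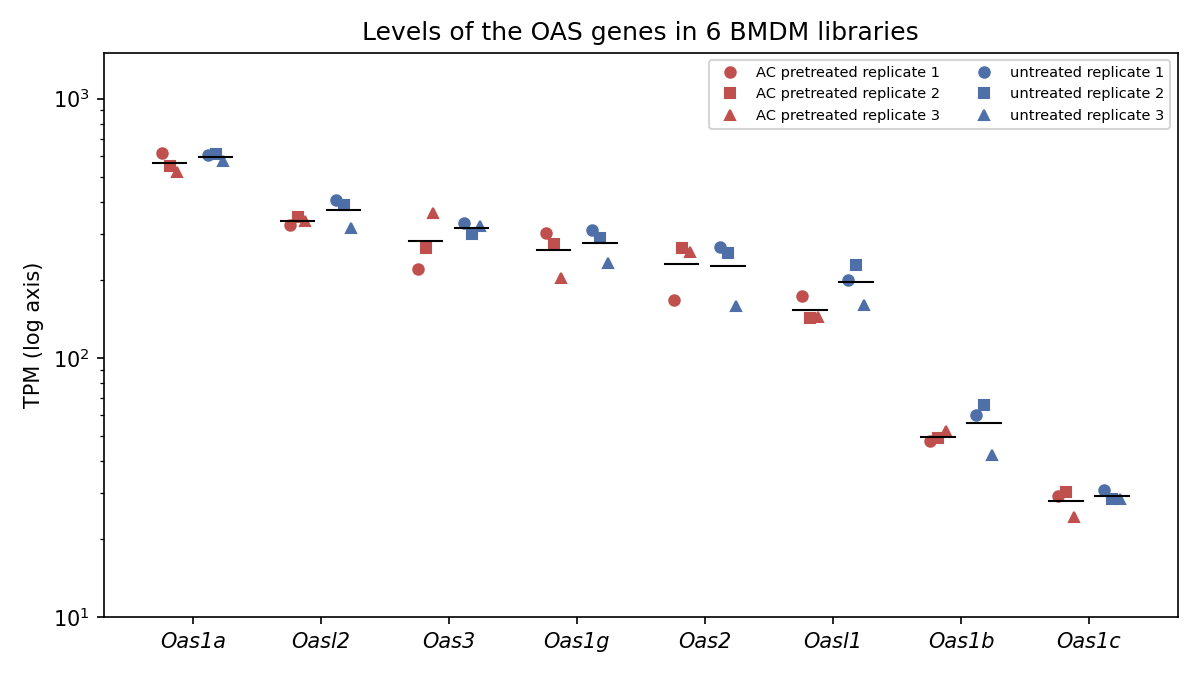
TPM (log axis) of the 8 OAS members, ordered by mean, in each library, with AC pretreated libraries left of untreated ones, 1 symbol per replicate and a black line at each group mean. Oas1a was highest in all 6 libraries and Oas1c lowest, and the groups overlap for every gene.

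Position set the members in a pair of clusters on chromosome 5 (mm10, GENCODE release M21). Oas1a, Oas1b, Oas1c, Oas1g, Oas2 and Oas3 lie with Oas1d, Oas1e, Oas1f and Oas1h within 191.3 kb, and Oasl2 and Oasl1 lie 11.0 kb apart in a separate cluster. In the larger cluster Oas1e, listed at 0 TPM, sits between Oas3 and Oas1c, and Oas1f with 1 read in all and the low Oas1h sit between Oas1b and Oas1g.

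**Figure D2:**
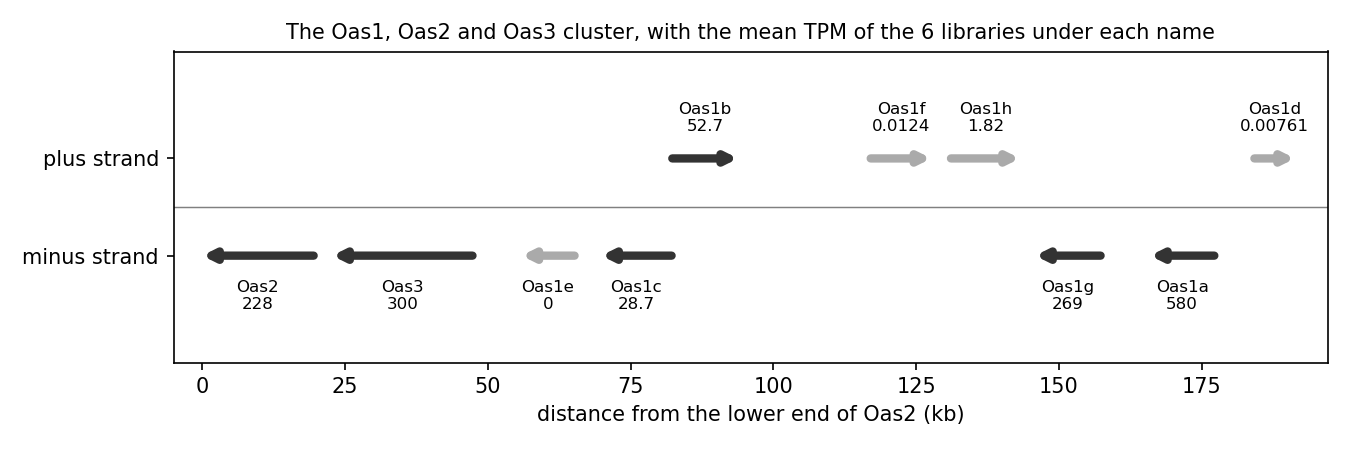
Map of the larger OAS cluster, drawn to scale in kb from the lower end of Oas2, with arrows in the direction of transcription, the 6 members in black, other Oas1 genes in grey, and the mean TPM of the 6 libraries under each name. Oas1a at 580 TPM and Oas1d at 0.00761 TPM are neighbours.

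Oas1a and Oas1g encode the small single-domain synthetases that are active in the mouse. Oas1a (ENSMUSG00000052776.10, chr5:120896256-120907521, minus strand) had 615, 551 and 522 TPM in AC replicates 1, 2 and 3, against 606, 610 and 577 TPM in untreated replicates 1, 2 and 3. AC replicate 1 was the highest of all 6 and the other AC libraries were the lowest. The log2 difference was -0.09 ± 0.13 (95% interval -0.38 to 0.20, limma). Oas1g (ENSMUSG00000066861.14, chr5:120876142-120887613, minus strand) had 302, 276 and 204 TPM in AC replicates 1, 2 and 3, against 310, 290 and 233 TPM in untreated replicates 1, 2 and 3. In each group replicate 3 was the lowest and replicate 1 the highest. The difference was -0.10 ± 0.19 (95% interval -0.53 to 0.33) and turned to 0.07 without AC replicate 3. These paralogs are hard to tell apart by sequence: 57.6% of the 50-base words in Oas1a transcripts and 45.7% of those in Oas1g transcripts occur in another gene, in nearly every case the other member of the pair. The treatment of reads that match both is not known from these sources, so the split between them is uncertain. Their sum was 823 ± 95.1 TPM in AC pretreated and 875 ± 57.7 TPM in untreated libraries (SD, n = 3 each). That sum is safer than the split only if each such read was counted for either Oas1a or Oas1g. It is too low if such reads were dropped, and too high if they were counted for each gene. The same doubt reaches the summed TPM of all OAS members and each member's share of it. The ratio of Oas1a to Oas1g lay between 2.0 and 2.56 in AC pretreated and between 1.95 and 2.48 in untreated libraries, and in both groups replicate 3 had the highest ratio.

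Oas1b and Oas1c are transcribed away from each other from starts 121 bases apart. Oas1b is the flavivirus resistance gene of the mouse, cut short by a premature stop in most laboratory strains and annotated as a polymorphic pseudogene in GENCODE. Oas1b (ENSMUSG00000029605.16, chr5:120812635-120824163, plus strand) had 47.5, 48.8 and 52.2 TPM in AC replicates 1, 2 and 3, against 60.1, 65.7 and 42.1 TPM in untreated replicates 1, 2 and 3. The AC libraries lay close together, inside the untreated range, and untreated replicate 3 was the lowest of all. The difference was -0.15 ± 0.18 (95% interval -0.57 to 0.27, limma). Oas1c, a paralog for which no synthetase activity is known in the mouse, was the flattest of the low pair. Oas1c (ENSMUSG00000001166.17, chr5:120800194-120812514, minus strand) had 29.4, 30.5 and 24.3 TPM in AC replicates 1, 2 and 3, against 31.0, 28.6 and 28.4 TPM in untreated replicates 1, 2 and 3. AC replicate 3 was the lowest and the rest lay within 3 TPM of each other. The difference was -0.07 ± 0.15 (95% interval -0.41 to 0.28), turned to 0.03 without AC replicate 3, and was 0.00 with median-of-ratios scaling. Some 227 exon bases of Oas1c overlap Gm43069 on the other strand, 15.1% of its 50-base words occur in another gene, and whether counting used strand is not known from these sources. Despite the shared start region the ratio of Oas1b to Oas1c was not constant, at 1.62, 1.6 and 2.14 in AC replicates 1, 2 and 3 and 1.94, 2.30 and 1.48 in untreated replicates 1, 2 and 3.

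Promoter windows of RefSeq (GRCm38.p6, 250 bases before and 50 after each start) matched 6 of the 8 members by symbol: Oas1a, Oas1c, Oas1g, Oas3, Oasl1 and Oasl2, and not Oas1b or Oas2. They were searched on both strands for GAAANNGAAA, the core of the interferon-stimulated response element (ISRE) that ISGF3 binds, with overlapping matches kept. It was present in 4 of the 6, against 3.44% of all 32851 windows. The stretches that hold it are shown because these OAS members carry the element close to their start, with the matches in capitals and the gene's own strand read from the left. The first is chr5:120907508-120907567, the second chr5:120887594-120887653, the third chr5:120812591-120812650 and the fourth chr5:120777700-120777759, all on the minus strand.
Oas1a: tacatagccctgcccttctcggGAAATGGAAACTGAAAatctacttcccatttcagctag
Oas1g: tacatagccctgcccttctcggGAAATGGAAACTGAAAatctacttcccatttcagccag
Oas1c: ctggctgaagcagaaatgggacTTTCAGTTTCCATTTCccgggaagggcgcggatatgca
Oas3: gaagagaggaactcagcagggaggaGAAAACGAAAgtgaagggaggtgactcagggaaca

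Oas1a and Oas1g carry the same run of 16 bases with 2 overlapping matches, starting 20 and 18 bases before their RefSeq starts, and their whole windows were 85.3% identical in a global alignment. The Oas1c window holds that run on the opposite strand, at 114 to 99 bases before its start. Seen from Oas1b, the run ends 6 bases short of the GENCODE start of that gene, in the forward direction. Oas3 has a single match at 75 bases before its start. The GAS letters TTCNNNGAA, the core of the interferon gamma-activated site, were in the Oas1a window and in none of the other 5, against 8.30% of all windows. In the Oasl1 and Oasl2 windows neither set of letters was present, which says nothing of elements outside them. The windows of Oas1f and Oas1h held neither as well. A match is a run of letters, not evidence of binding.

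Oas2 and Oas3 encode the larger synthetases, with several OAS domains each. Oas2 (ENSMUSG00000032690.16, chr5:120730333-120749853, minus strand) had 167, 265 and 257 TPM in AC replicates 1, 2 and 3, against 266, 253 and 159 TPM in untreated replicates 1, 2 and 3. Each group had 1 low library, AC replicate 1 and untreated replicate 3, and a pair at similar high values. Oas2 was the 1 member whose mean was not lower in AC pretreated libraries, with a difference of 0.03 ± 0.25 (95% interval -0.54 to 0.60, limma), and the sign turned without AC replicate 2 (-0.09), AC replicate 3 (-0.07) or untreated replicate 3 (-0.21). Oas3 (ENSMUSG00000032661.9, chr5:120753098-120777661, minus strand) had 220, 266 and 363 TPM in AC replicates 1, 2 and 3, against 332, 300 and 322 TPM in untreated replicates 1, 2 and 3. The AC libraries spread to both sides of the untreated ones, and the SD was 72.7 TPM in AC pretreated against 16.3 TPM in untreated libraries. The difference was -0.20 ± 0.19 (95% interval -0.63 to 0.23), and it was -0.39 without AC replicate 3 and -0.03 without AC replicate 1. Neither gene shares exon bases with another gene on either strand.

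Oasl1 and Oasl2 encode OAS-like proteins with ubiquitin-like repeats. OASL1 lacks synthetase activity and holds back translation of Irf7 mRNA in the mouse, whereas mouse OASL2 keeps the activity. Oasl1 (ENSMUSG00000041827.15, chr5:114923240-114937915, plus strand) had 174, 142 and 144 TPM in AC replicates 1, 2 and 3, against 200, 228 and 159 TPM in untreated replicates 1, 2 and 3. AC libraries were lower in 8 of the 9 pairings of an AC with an untreated library, and the exception was AC replicate 1 against untreated replicate 3. For the other members the number was 4 to 6 of 9. The pairings reuse 3 libraries per group and so are not independent, and the share of all genes with as many is not given here. The mean was 153 ± 17.6 TPM in AC pretreated and 196 ± 34.6 TPM in untreated libraries (SD, n = 3 each), 21.6% lower. Its difference of -0.34 ± 0.17 was larger than that of any other member (95% interval -0.73 to 0.05) and lay between -0.48 and -0.22 on leaving out 1 library. The unadjusted p was 0.0771 and the adjusted p 1.0 by limma. Some 38 exon bases of Oasl1 overlap Gm13822 on the other strand. Oasl2 (ENSMUSG00000029561.17, chr5:114896936-114912234, plus strand) had 326, 350 and 338 TPM in AC replicates 1, 2 and 3, against 406, 389 and 316 TPM in untreated replicates 1, 2 and 3. Untreated replicates 1 and 2 were above every AC library and untreated replicate 3 below. The difference was -0.12 ± 0.14 (95% interval -0.45 to 0.20). The ratio of Oasl1 to Oasl2 was 0.533, 0.406 and 0.427 in AC replicates 1, 2 and 3, against 0.492, 0.586 and 0.503 in untreated replicates 1, 2 and 3. In AC replicate 1, other genes of like length deviated from their own means by a median of -0.02 for Oasl1 and -0.33 for Oasl2. The part that length plays in this ratio was not tested.

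As a group, 7 of 8 members had a lower mean in AC pretreated libraries, beside 70.6% of all genes tested, and the direction turned for Oas1c with median-of-ratios scaling (0.00) and for Oas2 when 1 common factor scaled all libraries (-0.04). The median difference was -0.11 over the 8 members and -0.07 over all genes. The groups did not overlap for 0 of 8 members, beside 4.42% of all genes, or 3.48% with the AC pretreated libraries lower. All 8 intervals of the difference included 0 and lay inside 2-fold, and 5 lay inside 1.5-fold, on a scale that hardly shrinks changes at these levels. Oas1a made up 29.6 ± 2.78% of the summed TPM in AC pretreated and 29.0 ± 2.11% in untreated libraries, Oasl2 made up 17.7 ± 0.420% and 17.9 ± 0.566%, and Oasl1 made up 8.06 ± 1.02% and 9.41 ± 0.990%. Oas2 made up 12.0 ± 2.74% in AC pretreated and 10.8 ± 1.86% in untreated libraries, and Oas3 14.8 ± 3.78% and 15.5 ± 1.87%.

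**Figure D3:**
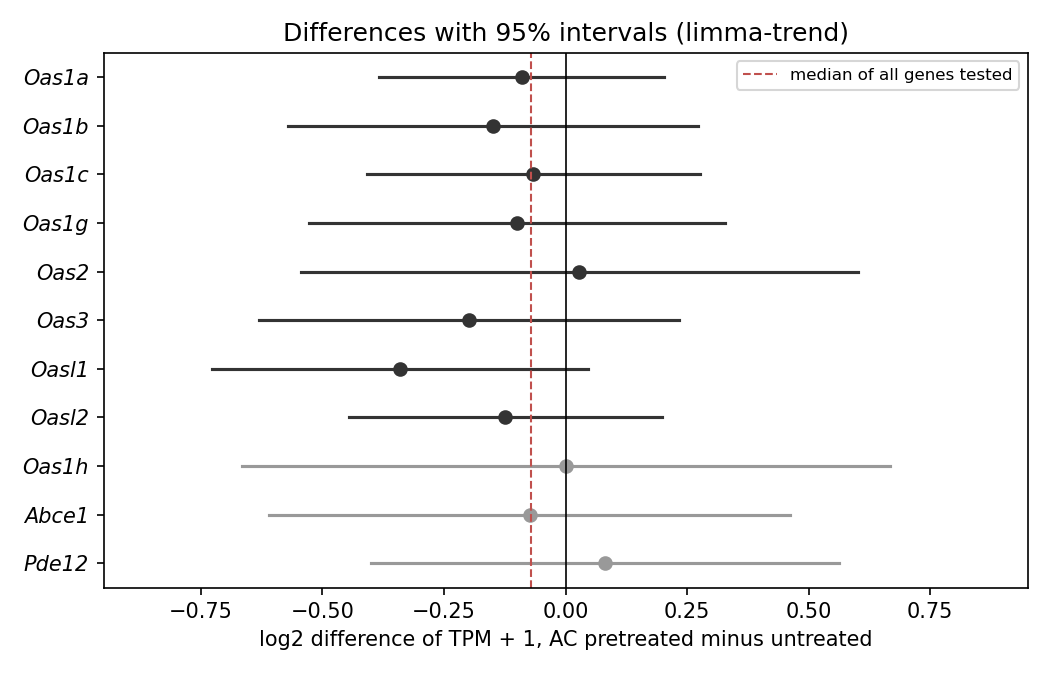
Log2 differences of TPM + 1 (x axis, AC pretreated minus untreated) with 95% intervals from limma for the 8 OAS members in black and for Oas1h, Abce1 and Pde12 in grey; the dashed line marks the median of all genes tested at -0.07. Every interval crosses 0, and Oasl1 comes nearest to leaving it out.

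The observed spread between libraries was above the value from counting error for all 8 members, by the least for Oas1c in untreated libraries. There, and for Oas1b in AC pretreated libraries (4.84% against 3.68%), 3 libraries are too few to show an excess. The value from counting takes each recovered read as independent, which is not known for libraries read from both ends. Reads per library ran from 407 to 744 for Oas1c, the lowest member, and from 12883 to 26878 for Oasl2. Counting error alone would give a coefficient of variation of 4.48% in AC pretreated and 4.28% in untreated libraries for Oas1c, against an observed 11.6% and 4.98%. For Oas2 the same values were 1.15% and 1.18% from counting, against an observed 23.7% and 25.9%. Oas3 was as variable as Oas2 in AC pretreated libraries at 25.7% but not in untreated ones at 5.11%.

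Members moved in different libraries, as their deviations from their own 6-library means show. Replicate 3 of the untreated group was the lowest library for Oas1b, Oas2 and Oasl2, and AC replicate 3 the lowest for Oas1a, Oas1c and Oas1g. Profiles were compared by the root mean square distance between these deviations, in log2 units over 6 libraries. Oas1a and Oas1c were the closest pair at 0.083, but they departed from a flat line by only 0.086 and 0.11. Oas1b and Oasl2 followed at 0.11, with departures of 0.21 and 0.13, and Oas1g and Oas3 were the farthest apart at 0.40. The member nearest to Oas3 was Oasl2 at 0.24.

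Transcript length goes with part of this pattern. Genes were set in 20 bins by merged exon length. In the bin of Oas3 (7069 bases), the median deviation of 618 other genes was -0.35, 0.07 and 0.18 in AC replicates 1, 2 and 3, against 0.11, 0.00 and 0.00 in untreated replicates 1, 2 and 3. Oas3 itself deviated by -0.43, -0.16 and 0.29, against 0.16, 0.02 and 0.12 in the same libraries. Oasl2, of like length (6374 bases), did not have the low value: it stood at -0.12 in AC replicate 1, where its bin stood at -0.33. In the bin of Oas1a (1885 bases) the order was turned, at 0.07 in AC replicate 1 and -0.14 in AC replicate 3, close to the 0.09 and -0.15 of Oas1a itself. Oas1b (1992 bases), of the same bin, did not follow it, at -0.13 in AC replicate 1 and 0.00 in AC replicate 3. The low Oas2 value of untreated replicate 3, a deviation of -0.48, had no counterpart in its bin, which stood at 0.00. With the length trend removed, the differences were -0.28 for Oasl1, -0.13 for Oas3 and 0.11 for Oas2, and all 8 kept their sign.

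**Figure D4:**
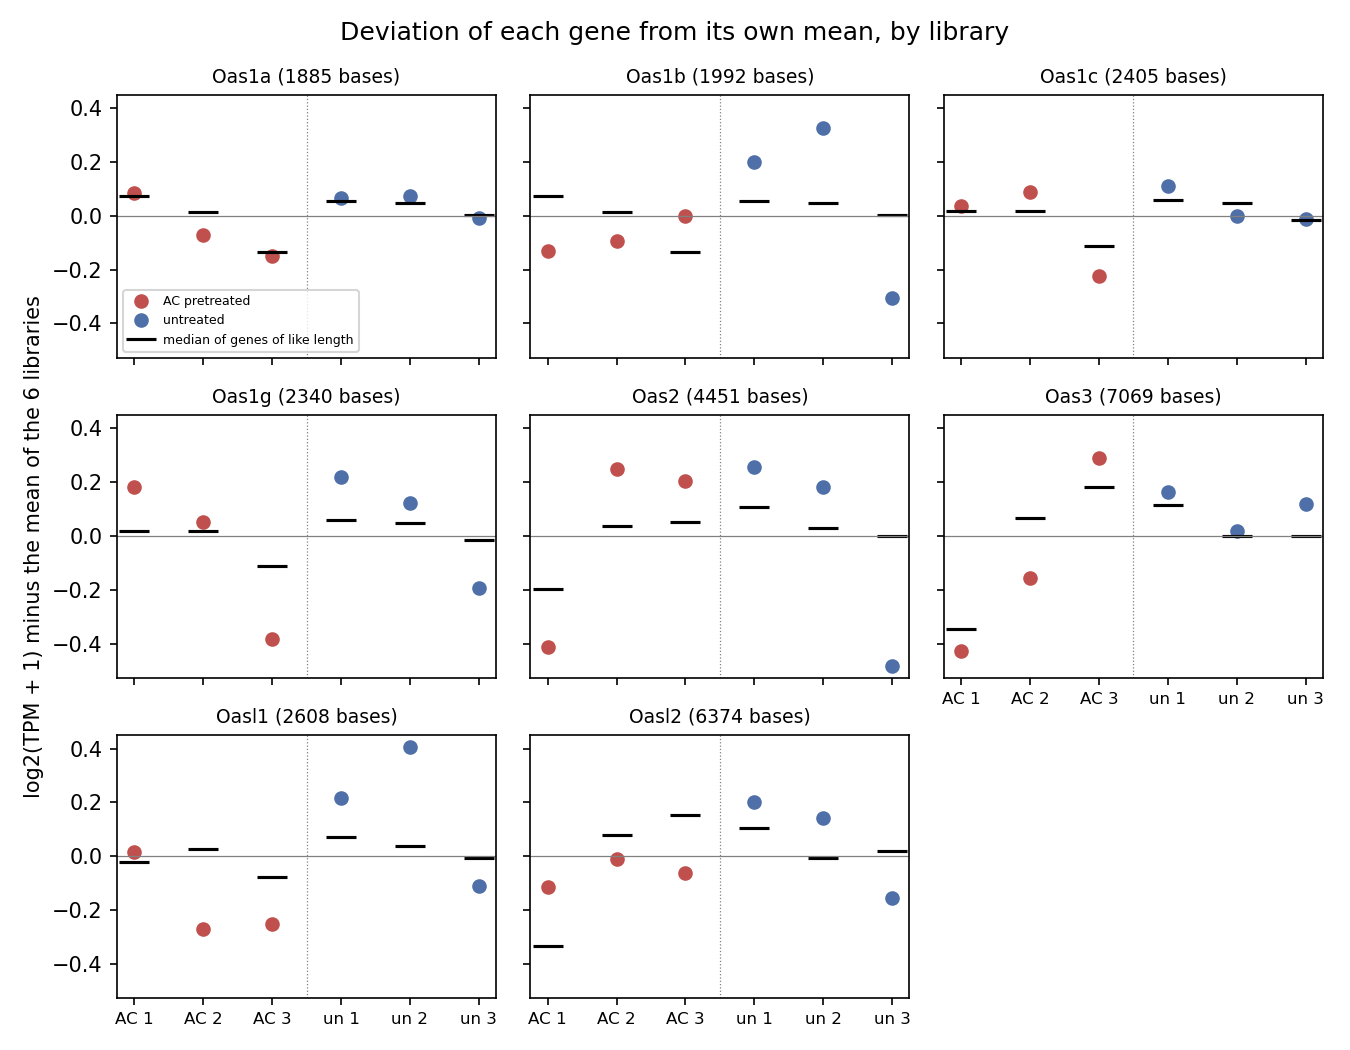
Deviation of log2(TPM + 1) from each gene's own mean (y axis) in the 3 AC pretreated (AC) and 3 untreated (un) libraries (x axis) for the 8 OAS members, with black bars at the median of other genes of like length. Oas3 is lowest in AC replicate 1, where long genes are low as a class, and Oas2 is also low in untreated replicate 3, where they are not.

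The comparison was also made within the libraries that held placental transcripts and within those that did not, a split chosen after seeing the data. Among the 4 libraries with them, differences were -0.38 for Oas1b, -0.23 for Oasl2, -0.30 for Oas2 and -0.38 for Oas3. Between the pair without them, replicate 3 of each group and so 1 library against 1, the values were 0.30 for Oas1b, 0.09 for Oasl2, 0.69 for Oas2 and 0.17 for Oas3, with no test. Oasl1 had the same direction in both, at -0.44 and -0.14, and so did Oas1a at -0.06 and -0.14. Oas1c stood at 0.01 and -0.21, and Oas1g at -0.06 and -0.19. The median of all genes was -0.13 among the 4 libraries and 0.05 between the pair, so it moved as well.

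A pair of other listed genes was followed beside the synthetases. Abce1, which encodes a ribosome recycling factor, averaged 31.3 ± 9.65 TPM in AC pretreated and 32.0 ± 2.77 TPM in untreated libraries (SD, n = 3 each), and its difference of -0.07 turned to 0.19 without AC replicate 1. Pde12, a phosphodiesterase that breaks down oligoadenylates, averaged 8.46 ± 2.01 TPM in AC pretreated and 7.81 ± 0.620 TPM in untreated libraries, and its difference of 0.08 turned to -0.05 without AC replicate 3. Of these 2 genes, 0 passed in either direction.

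Upstream of the OAS promoters, 12 of 13 listed genes of type I interferon signalling were tested, and 0 passed in either direction. All 12 had lower means in AC pretreated libraries, beside 70.6% of all genes, with a median difference of -0.15. The groups did not overlap for 2 of 12, beside 4.42% of all genes. The median of all genes was -0.07, and -0.01 with median-of-ratios scaling. Ifnb1, the interferon beta gene, did not pass the filter, with 2, 0 and 4 reads in AC replicates 1, 2 and 3 and 4, 5 and 2 reads in untreated replicates 1, 2 and 3. Stat2, which encodes a subunit of ISGF3, averaged 224 ± 44.9 TPM in AC pretreated and 256 ± 36.0 TPM in untreated libraries (-0.20 ± 0.18). Irf9, which encodes another, averaged 75.0 ± 7.57 TPM in AC pretreated and 83.0 ± 3.51 TPM in untreated libraries (-0.15 ± 0.13). Irf7, the factor whose translation OASL1 limits, averaged 1063 ± 180 TPM in AC pretreated and 1233 ± 66.7 TPM in untreated libraries (-0.22 ± 0.16). Usp18, which damps interferon receptor signalling, differed by -0.23 ± 0.13.

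Of 11 other genes for sensors and binding proteins of double-stranded RNA, 11 were tested and 0 passed in either direction, with a median of -0.13. Lower means were found for 9 of 11, beside 70.6% of all genes, and the groups did not overlap for 0 of 11, beside 4.42%. Eif2ak2, which encodes the kinase PKR, had 50.6, 77.3 and 118 TPM in AC replicates 1, 2 and 3, against 89.6, 73.5 and 97.3 TPM in untreated replicates 1, 2 and 3, so AC replicates 1 and 3 were again the extremes. Adar, an RNA editing enzyme that limits OAS activation, differed by -0.14 ± 0.20, the sensor gene Ifih1 by -0.17 ± 0.16 and Dhx58 by -0.13 ± 0.13. Of 16 other interferon-induced effector genes, 16 were tested, 16 had lower means, beside 70.6% of all genes, and 0 passed in either direction, with a median of -0.26. In that list the groups did not overlap for 5 of 16, beside 4.42% of all genes or 3.48% with AC pretreated libraries lower, and 2 of 16 had an unadjusted p under 0.05 by limma, beside 1.30%. Isg15, a ubiquitin-like modifier gene, differed by -0.35 ± 0.23, Ifit1 by -0.20 ± 0.17, Mx1, an antiviral GTPase gene, by -0.32 ± 0.23 and Rsad2 by -0.35 ± 0.17. The OAS median of -0.11 lay between those of the effectors and of all genes, and no test of that order was run.

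The genes with the profile most like the mean OAS profile over the 6 libraries were Slc35c1, Smarcal1, Lcp2, Eif2ak1 and Ppp2r5d, among 8759 genes of at least 5 TPM on average. Their root mean square distances were 0.025 to 0.039 log2 units, where the mean OAS profile itself departs from a flat line by 0.12. Slc35c1, a GDP-fucose transporter gene, had 29.4, 29.3 and 28.3 TPM in AC replicates 1, 2 and 3, against 34.7, 34.2 and 27.8 TPM in untreated replicates 1, 2 and 3. Like the OAS mean, it was higher in untreated replicates 1 and 2 than in the other 4 libraries.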

How the data were processed

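Per the labels' protocols, poly(A) RNA of 6 libraries was read from both ends on an Illumina instrument. STAR 2.7.10a, featureCounts 2.0.3, Subread and mm10 appear, without role or order, in the submitters' processing notes. The authors deposited a signal per gene and library, named as TPM, whose columns sum to 54732 to 92831. Its product with merged exon length (GENCODE M21), over a constant of 8.57 shared by all libraries, gave whole reads in all 6 libraries for 23473 of 23829 genes (98.5%, tolerance 0.02 reads), so it is a read count per exon base that is not scaled for depth. Each column was rescaled to sum to 1000000. Unused columns numbered 0.

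Genes that reached 1 TPM in 3 or more libraries entered limma 3.58.1 (R 4.3.3, trended variance) on log2(TPM + 1), 2-sided, with Benjamini-Hochberg adjustment. The median SE was 0.21. The test was tried on simulated data. Profiles, sums, length bins and sequences were computed with Python 3.11.15, pandas 2.3.3 and Biopython 1.88. Replicates differed by more than sampling noise in every pair. The members and gene lists were chosen with earlier results of these data known. Named genes were the members, Abce1, Pde12, the other Oas1 genes, 13 fixed genes of the other lists, the 5 nearest profiles, and Gm23935 and Lyz2, which bear on the scaling. A further 2 genes of the rule are not reported here. Gm43069, Gm13822, Cd3d, Cd8b1 and Cd4 fall outside that rule. Alternatives changed the pseudocount, the filter, the scaling or the variance model, or used voom on recovered reads, the replicate number as a block, or all libraries but 1. Those for placental transcripts and transcript length were chosen after seeing the data.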

Additional observations from a re-analysis of the deposited data

How the results depend on the processing

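Over 160 alternative values of the 8 OAS differences, 148 kept their direction and 12 turned. A p-value could be had for 152 of them, and 0 passed the test. The number of genes passing was 12 with values as deposited, all libraries multiplied by 1 common factor, and 1 by limma without a trend, and 0 in the other settings that allow a test. With the common factor, whose scale is not TPM, the summed OAS difference was -321.888 units, Oas2 stood at -0.04 and Oas1h at -0.04. Oas1c was 0.00 with median-of-ratios scaling, and Oas1h was -0.04 with a pseudocount of 0.1 TPM. The next settings were chosen after seeing the data. Among the 4 libraries with placental transcripts, the direction turned for Oas1c (0.01), Oas2 (-0.30), Pde12 (-0.09) and Oas1h (-0.19). Between the 2 libraries without them it turned for Oas1b (0.30), Oas3 (0.17), Oasl2 (0.09), Stat2 (0.30), Eif2ak2 (0.27), Adar (0.40), Dhx58 (0.04), Mx1 (0.34), Slc35c1 (0.03), Smarcal1 (0.11), Lcp2 (0.03) and Eif2ak1 (0.11). With the length trend removed Abce1 was 0.01. Leaving out 1 library gave ranges that crossed 0 for Oas1c (-0.13 to 0.03), Oas1g (-0.22 to 0.07), Oas2 (-0.21 to 0.24), Abce1 (-0.26 to 0.19), Pde12 (-0.05 to 0.26), Oas1h (-0.21 to 0.25), Eif2ak2 (-0.46 to 0.14) and Adar (-0.31 to 0.05). The causes were not tested. Same-numbered libraries did not deviate together across genes in every pair, with correlations of -0.06, 0.01 and 0.167 for replicates 1, 2 and 3, although replicate 3 of both groups lacked placental transcripts, and the labels do not pair them. AC replicate 1 correlated best with untreated replicate 2. With the replicate block 0 genes passed and 225 had an unadjusted p under 0.05.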
